A study of Mus musculus with 10 samples.

Results

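The genes described here are those that encode the Polycomb machinery itself. They are the core and accessory subunits of Polycomb repressive complex 2 (PRC2), the subunits of Polycomb repressive complex 1 (PRC1) and the enzymes that remove methyl groups from lysine 27 of histone H3. The 33 genes were chosen by the role of their product, and each matched 1 of the 22380 protein-coding gene records of GENCODE M1 on NCBIM37, the mouse assembly also called mm9. The questions were which Polycomb genes carry H3K27me3 or Mtf2 themselves in developing red cells, and whether the marks at *Phf1* and *Phf19*, the other Polycomb-like genes, change where *Mtf2* is deleted.

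Chromatin immunoprecipitation sequencing (ChIP-seq) was performed on fetal liver (FL) cells of e14.5 C57Bl/6 embryos, either wild type (WT, Pcl2+/+) or lacking *Mtf2* (Mtf2-null, Pcl2-/-, Pcl2 being another name of Mtf2). The null allele came from gene-targeted EUCOMM embryonic stem cells aggregated with CD1 blastocysts, and nothing in the labels ties the deletion to a single tissue. CD71+Ter119-/lo cells (pro-erythroblasts) and CD71+Ter119high cells (erythroblasts) were sorted, and 500000 cells were used per sample. H3K27me3 was profiled in both fractions of both genotypes, Mtf2 in both fractions of WT embryos, and IgG served as the control. Each of the 6 ChIP conditions had 1 peak list, so no difference below has a replicate check, no test was possible, and "lost" or "gained" means only that a peak was called in one list and not in the other. The lists hold peaks and no reads between them, so they cannot check the *Mtf2* deletion, and no Mtf2 ChIP from null cells was analysed here to show what the antibody recovers without its target. Transcript levels were not measured in these libraries.

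PRC2 places methyl groups on lysine 27 of histone H3 through its catalytic subunit Ezh1 or Ezh2, and the trimethylated form, H3K27me3, is found at silenced developmental genes. Accessory subunits direct the complex, and the Polycomb-like proteins Mtf2, Phf1 and Phf19 carry a domain that binds DNA rich in the dinucleotide CpG. PRC1 ubiquitinates histone H2A, and its canonical forms read H3K27me3 through a Cbx protein. The demethylases Kdm6a and Kdm6b take the mark off again.

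Of the 33 genes, 14 had a peak within 5 kb of a transcription start site (TSS) or over the gene body in at least 1 list, and 11 of these had one within 5 kb of a TSS. The other 19 (57.6%) had none in any list, against 66.1% of all protein-coding genes. Member genes were longer than the rest, with a median length of 31.4 kb against 15.4 kb, and had more annotated TSS, with a median of 5 against 2, so that their windows covered more sequence. In WT erythroblasts 7 members (21.2%) had H3K27me3 near a TSS, against 11.5% of all genes. All 7 were among the 20 members that encode PRC1 subunits, and roles were not compared by a test. None of the 7 had a peak near a TSS in the Mtf2-null erythroblast list, as was the case for 98.8% of all genes with a WT peak there.

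**Figure D1:**
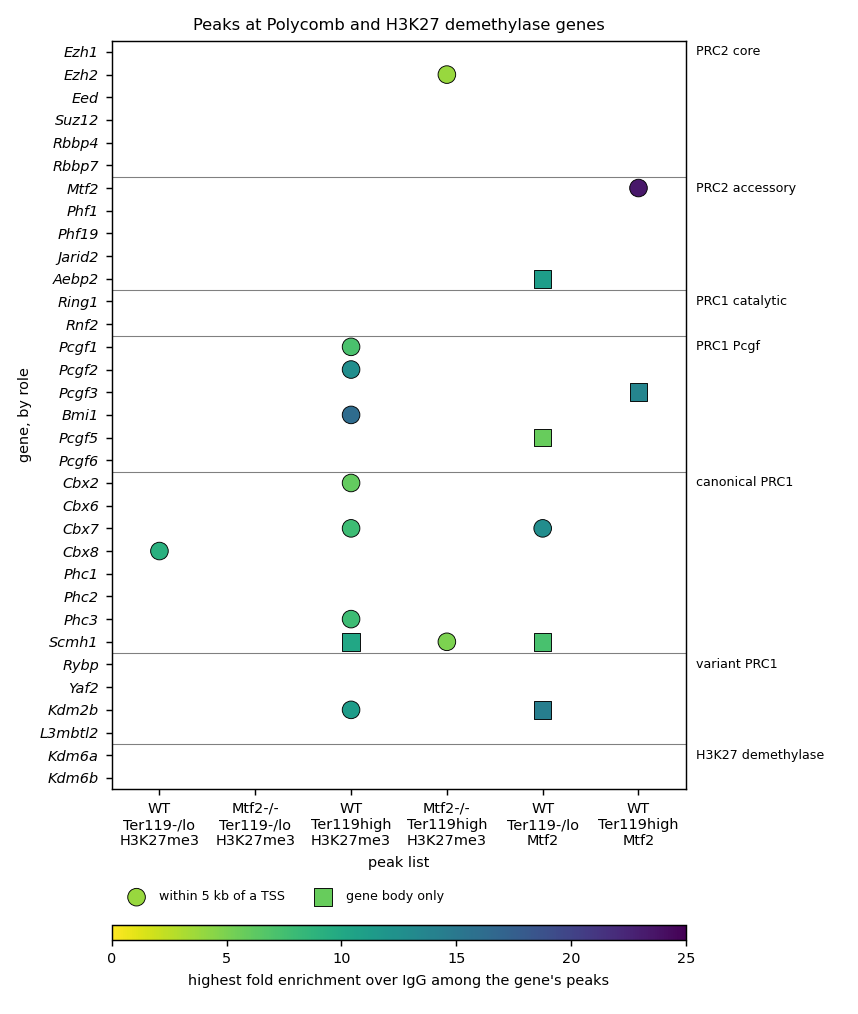
Peaks at the 33 genes (rows, by role) in the 6 peak lists (columns). A circle marks a gene whose peak lies within 5 kb of a TSS, a square a gene with a peak over the gene body only, and the colour gives the highest fold enrichment over IgG among that gene's peaks; the WT erythroblast H3K27me3 column holds 7 circles and 1 square, and the column to its right 2 circles at other windows.

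To show what kind of DNA the peaks covered, 200 bases around the summit are given for the most enriched peak near a TSS of each of the 4 members with the highest fold enrichment in a WT H3K27me3 list, and of the 2 members with such a Mtf2 peak. They were read from the NCBIM37 genome on the strand of the gene, 5′ to 3′, with each CpG in capitals.

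Bmi1: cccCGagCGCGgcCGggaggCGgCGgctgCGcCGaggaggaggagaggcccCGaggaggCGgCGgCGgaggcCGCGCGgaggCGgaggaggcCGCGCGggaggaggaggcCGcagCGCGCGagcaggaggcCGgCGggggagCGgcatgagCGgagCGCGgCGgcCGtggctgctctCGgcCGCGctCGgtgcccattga
Pcgf2: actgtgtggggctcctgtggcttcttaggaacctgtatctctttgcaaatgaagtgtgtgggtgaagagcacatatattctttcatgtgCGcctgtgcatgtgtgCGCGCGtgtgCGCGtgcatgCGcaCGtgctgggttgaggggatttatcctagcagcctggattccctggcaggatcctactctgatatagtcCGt
Kdm2b: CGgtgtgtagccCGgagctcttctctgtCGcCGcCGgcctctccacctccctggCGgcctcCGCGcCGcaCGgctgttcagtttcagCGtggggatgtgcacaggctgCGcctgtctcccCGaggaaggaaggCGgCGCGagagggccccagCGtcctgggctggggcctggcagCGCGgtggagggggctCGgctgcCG
Cbx8: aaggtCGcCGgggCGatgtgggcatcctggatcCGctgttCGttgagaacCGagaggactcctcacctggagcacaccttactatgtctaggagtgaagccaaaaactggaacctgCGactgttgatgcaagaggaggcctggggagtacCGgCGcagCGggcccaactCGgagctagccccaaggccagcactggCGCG
Mtf2: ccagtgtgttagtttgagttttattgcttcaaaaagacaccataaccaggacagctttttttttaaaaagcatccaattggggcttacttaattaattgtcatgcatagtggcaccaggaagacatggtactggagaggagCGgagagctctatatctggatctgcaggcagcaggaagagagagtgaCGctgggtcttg
Cbx7: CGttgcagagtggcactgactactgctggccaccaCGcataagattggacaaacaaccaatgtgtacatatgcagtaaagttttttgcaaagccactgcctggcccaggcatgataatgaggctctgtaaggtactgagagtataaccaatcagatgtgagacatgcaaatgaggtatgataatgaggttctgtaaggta

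The *Bmi1* sequence (chr2:18598772-18598971, plus strand) held 35 CpG and the *Kdm2b* sequence (chr5:123402416-123402615, minus strand) held 21. The *Cbx8* sequence (chr11:118903900-118904099, minus strand), from pro-erythroblasts, held 13. The *Pcgf2* sequence (chr11:97556786-97556985, minus strand) held 9. The sequences under the Mtf2 peaks held 2 CpG each, at *Mtf2* (chr5:108515434-108515633, plus strand, erythroblasts) and at *Cbx7* (chr15:79805269-79805468, minus strand, pro-erythroblasts).

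The libraries differed in ways that touch every comparison. Unique tags, meaning reads at distinct positions, numbered between 15669899 and 67169672 per ChIP library, and for H3K27me3 the Mtf2-null library was 1.95 times as deep as the WT library in pro-erythroblasts and 2.23 times in erythroblasts. Unique tags made up 34.6% and 39.7% of all tags in the Mtf2 libraries and at least 78.4% in the H3K27me3 libraries. A 25-base word centred on the summit, 25 being the tag size in the list headers, occurred once in the genome for 82.6% of the WT erythroblast H3K27me3 peaks. The share was 23.0% in WT and 54.4% in Mtf2-null pro-erythroblast H3K27me3, 11.7% in Mtf2-null erythroblast H3K27me3, and 5.29% and 6.78% in pro-erythroblast and erythroblast Mtf2. Sequence was called CpG island-like where, in 1 kb around the summit, GC reached 50% and the number of CpG over that expected from the C and G content (the CpG ratio) reached 0.6. Such sequence was found at 47.6% of the WT erythroblast H3K27me3 peaks and at 0 of the 5791 Mtf2-null ones. By counting alone, 0 peaks allow a share of up to 0.0518%. This limit takes peaks as independent and leaves out variation between libraries. CpG island-like sequence was found at 4.35% and 2.7% of the WT and Mtf2-null pro-erythroblast H3K27me3 peaks. The shares were 2.84% and 0.433% of the pro-erythroblast and erythroblast Mtf2 peaks. The erythroid genes *Gata1*, *Klf1*, *Tfrc*, *Epor*, *Alas2*, *Slc4a1* and *Tal1* had no peak near a TSS in any list, while the lymphoid gene *Pax5*, the endothelial gene *Kdr* and the neural gene *Olig2* were the 3 of 11 genes of other cell types with H3K27me3 in WT erythroblasts.

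Among the core PRC2 genes, none of the 6 had H3K27me3 in a WT list. At the shares of all genes with a peak near a TSS, 11.5% in erythroblasts and 3.28% in pro-erythroblasts, a count of 0 of 6 does not set them apart. These were *Ezh1* and *Ezh2* (the methyltransferases), *Eed* (which binds the finished mark), *Suz12* (the scaffold), and *Rbbp4* and *Rbbp7* (histone-binding subunits). The nearest peak of any list lay 17.0 kb from a TSS of *Ezh1*, 10.5 kb from *Eed*, 18.0 kb from *Suz12*, 84.7 kb from *Rbbp4* and 19.5 kb from *Rbbp7*. Of the 6 lists, that of Mtf2-null erythroblast H3K27me3 was the only one with a peak at *Ezh2*. It lay in an intron at chr6:47487453-47490332, 57.3 kb inside the gene and 2.71 kb downstream of the start of the retained-intron transcript Ezh2-011. It held 174 tags, with a fold enrichment of 3.9, a score (−10 log10 of the peak's p) of 60.8 and a false discovery rate (FDR) of 0.33%, and 47.2% of the peaks of that list scored lower. In WT erythroblasts the nearest H3K27me3 peak was 452 kb from an *Ezh2* TSS. None of the 25-base words in the 200 bases around the Mtf2-null summit occurred only once in the genome, and their median was 2401 occurrences.

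No H3K27me3 peak was called at the Polycomb-like genes in either genotype. *Phf1* (chromosome 17, 27070072 to 27074835, plus strand, 1 TSS) and *Phf19* (chromosome 2, 34749277 to 34769546, minus strand) had no peak near a TSS or over the gene body in any of the 6 lists. For *Phf1* the nearest H3K27me3 peak lay 97.7 kb away in WT and 91.2 kb away in Mtf2-null pro-erythroblasts. In erythroblasts it lay 16.1 kb away in WT and 63.2 kb away in Mtf2-null cells. For *Phf19* the distances were 302 and 201 kb in pro-erythroblasts and 590 and 891 kb in erythroblasts, in the same order. The nearest Mtf2 peak was 124 kb from the *Phf1* TSS in both fractions, and 15.2 kb in pro-erythroblasts and 20.8 kb in erythroblasts from *Phf19*. With no called peak in WT or Mtf2-null cells, no change of the mark at *Phf1* or *Phf19* was detectable in these lists. Of all genes, 11.5% had H3K27me3 near a TSS in WT erythroblasts and 3.28% in WT pro-erythroblasts. The Mtf2-null shares were 1.63% and 1.27%. At such shares the lack of a peak does not set these genes apart.

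*Mtf2* itself had no H3K27me3 peak, the nearest lying 276 and 216 kb away in WT pro-erythroblasts and erythroblasts and 908 and 482 kb away in the Mtf2-null fractions. It was the only member with a Mtf2 peak near a TSS in erythroblasts. That peak, at chr5:108515321-108516202, held 43 tags, with a fold enrichment of 23.4, a score of 127 and an FDR of 9.84%, and 97.7% of the peaks of its list scored lower. Its summit lay in an intron, 20.8 kb inside the gene and 0.481 kb upstream of the start of the protein-coding transcript Mtf2-008, not at the 5′ end. The 1 kb around it had a GC content of 38.6% and a CpG ratio of 0.188, while the 5′ end of *Mtf2* had 52.5% and 0.812. Of the 25-base words around this summit 88.6% occurred once in the genome. The nearest pro-erythroblast Mtf2 peak was 134 kb from an *Mtf2* TSS.

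The remaining accessory genes had no H3K27me3 peak. *Aebp2*, a PRC2 cofactor, had a pro-erythroblast Mtf2 peak over its gene body at chr6:140618262-140618887, in an intron 47.8 kb from the 5′ end, with 21 tags, a fold enrichment of 11.2, a score of 53.6 and an FDR of 0.25%. Only 9.83% of the peaks of that list scored lower. *Jarid2*, which bridges PRC2 to chromatin, had no peak in its windows, and its nearest peak, 5.6 kb from a TSS, was a pro-erythroblast Mtf2 peak.

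In WT erythroblasts 7 of 33 members had H3K27me3 within 5 kb of a TSS, against 11.5% of all genes, and 8 had it near a TSS or over the gene body, against 13.2% of all genes. The members' shares were 21.2% and 24.2%. Members are richer in CpG than other genes, with CpG island-like sequence at the 5′ end of 78.8% of them against 44.2% of all genes. Among genes with a CpG island-like TSS, 18.8% had such a peak, beside 7 of 31 members (22.6%). Where only the 5′ end of the gene record was used, 4 members (12.1%) and 10.5% of all genes had a peak. Under each of these restrictions, taken alone, the members' share was nearer to that of the genes beside it. The part of base composition or of the choice of TSS in the difference was not tested.

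**Figure D2:**
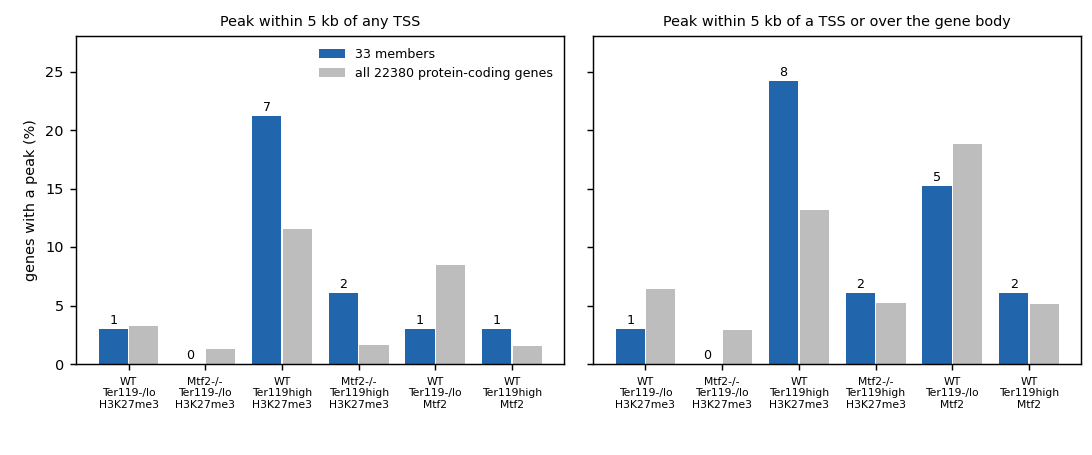
Percent of genes with a peak in each list, within 5 kb of any TSS (left) and near a TSS or over the gene body (right). Blue bars are the 33 members, with the number of genes above each bar, and grey bars all 22380 protein-coding genes; the widest gap in the left panel is that of WT erythroblast H3K27me3, 21.2% against 11.5%.

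The 7 genes encode PRC1 subunits of several kinds. Among them were 3 Pcgf genes, whose RING-finger products define the PRC1 subtypes. *Bmi1*, known for repressing the Ink4a/Arf locus and maintaining stem cells, had the strongest peak. It spanned 3127 bases over the 5′ end at chr2:18597498-18600624, with its summit in an exon 0.227 kb past the 5′ end, and held 161 tags with a fold enrichment of 16.3, a score of 394 and an FDR of 2.22%. Of the peaks of that list 98.0% scored lower. Around the summit GC was 74.2% and the CpG ratio 1.01. The same peak also overlapped the neighbouring gene *Commd3*, so it cannot be assigned to *Bmi1* alone.

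*Pcgf2*, a close relative of *Bmi1*, had a pair of peaks. One covered the 5′ end at chr11:97561288-97563343, with 74 tags, a fold enrichment of 8.56, a score of 110 and an FDR of 4.36%, and also lay within 5 kb of a TSS of *Psmb3*. The other, at chr11:97556308-97557136, lay in an intron 4.92 kb inside the gene, with 31 tags, a fold enrichment of 12.8, a score of 57.8 and an FDR of 24.4%. *Pcgf1*, a subunit of the variant complex with Kdm2b, had a weak peak 2.54 kb upstream of its 5′ end, at chr6:83025329-83026213. It held 27 tags, with a fold enrichment of 7.19, a score of 50.6 and an FDR of 33.1%, and only 2.85% of the peaks of its list scored lower. The nearest TSS of another gene, that of *Tlx2*, was 5.55 kb from this summit.

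Of the Cbx genes, whose chromodomains bind H3K27me3, *Cbx2* and *Cbx7* were marked in WT erythroblasts. The *Cbx2* peak covered the 5′ end at chr11:118883862-118885154, with 43 tags, a fold enrichment of 5.99, a score of 62.5 and an FDR of 19.3%. *Cbx7* had adjacent peaks deep inside the annotated gene. The stronger, at chr15:79762592-79764841, had its summit in an exon 0.016 kb upstream of the start of the protein-coding transcript Cbx7-004 and 38.6 kb from the 5′ end, with 95 tags, a fold enrichment of 6.6, a score of 140 and an FDR of 3.16%. The other, at chr15:79764861-79766175, held 43 tags, with a fold enrichment of 7.86, a score of 83.8 and an FDR of 8.7%. The stronger summit lay in CpG island-like sequence (GC 61.4%, CpG ratio 0.766), while the 5′ end of the longest *Cbx7* transcripts did not (GC 51.3%, CpG ratio 0.456).

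*Phc3*, which encodes a polyhomeotic subunit of canonical PRC1, had a peak at chr3:30835074-30835852, 32.9 kb inside the gene and 3.37 kb upstream of the start of the retained-intron transcript Phc3-006. It held 24 tags, with a fold enrichment of 7.86, a score of 53.3 and an FDR of 29.9%, and 15.5% of the peaks of its list scored lower. *Kdm2b*, the CXXC-domain protein that brings variant PRC1 to unmethylated CpG, had a peak at chr5:123402109-123403104. Its summit lay 1 base upstream of the start of the protein-coding transcript Kdm2b-013, 62.6 kb from the 5′ end, with 33 tags, a fold enrichment of 11.3, a score of 67.1 and an FDR of 15.6%. *Scmh1*, a Sex comb on midleg homolog, was marked over the gene body only, at chr4:120156867-120157771, 19.0 kb from the nearest TSS, with 27 tags, a fold enrichment of 10.1, a score of 55.9 and an FDR of 26.7%.

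Of the 7 genes, 4, *Bmi1*, *Pcgf2*, *Pcgf1* and *Cbx2*, were marked near the 5′ end, and *Cbx7*, *Kdm2b* and *Phc3* only near starts of shorter transcripts inside the gene. The map of peak positions shows this contrast.

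**Figure D3:**
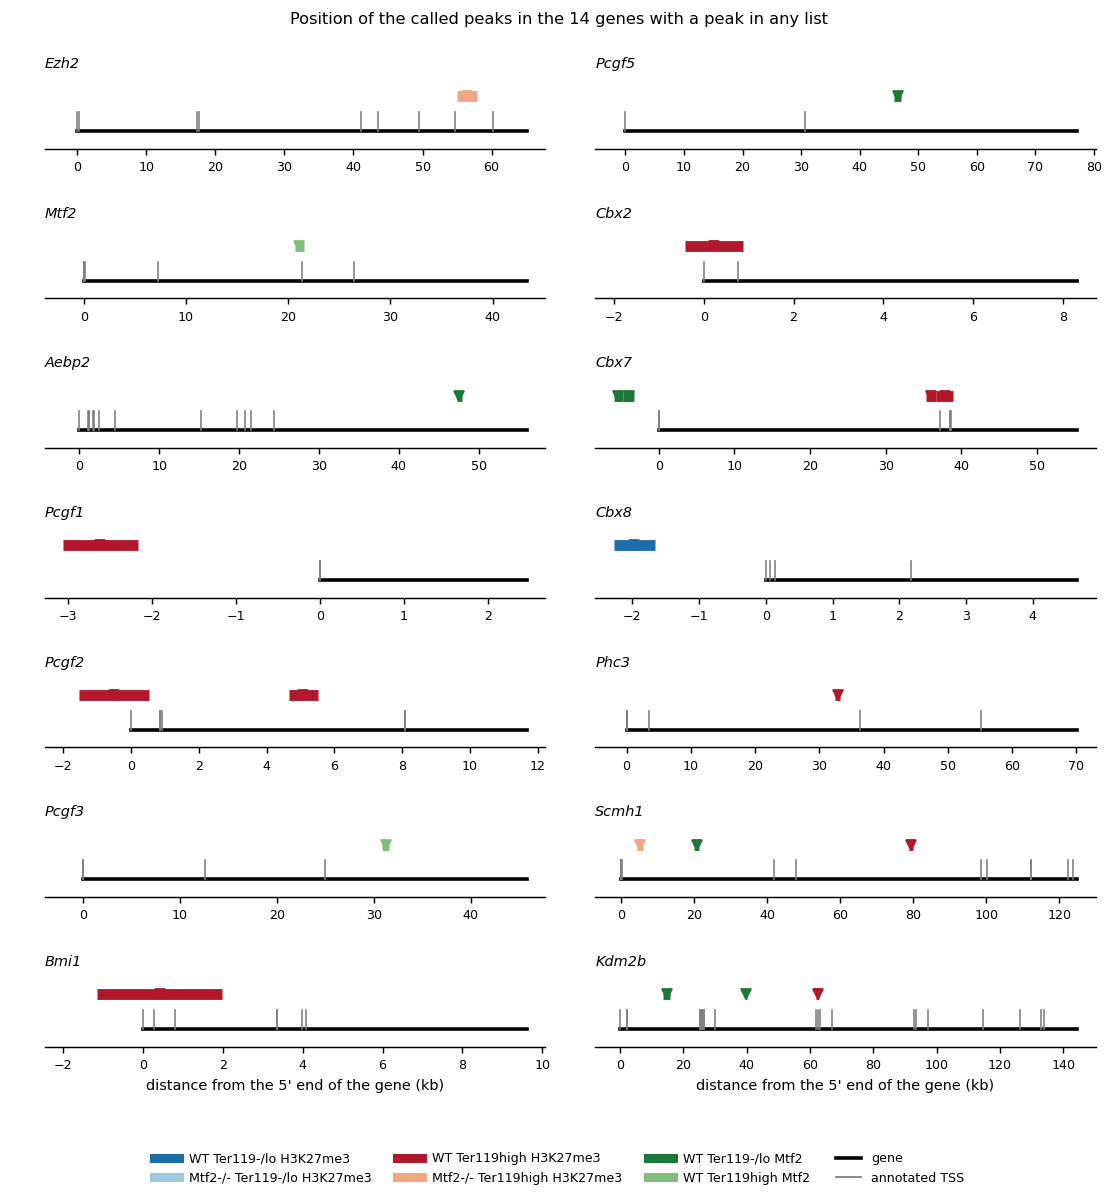
Called peaks along the 14 genes with a peak in any list, with distance from the 5′ end of the gene in kb on each axis. Black lines are genes, grey ticks annotated TSS and coloured bars with markers the peaks of each list, drawn to the scale of their panel; H3K27me3 in WT erythroblasts (dark red) covers the 5′ end of Bmi1, Pcgf2 and Cbx2 and lies 38.6 kb and 62.6 kb inside Cbx7 and Kdm2b.

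In WT pro-erythroblasts *Cbx8*, another H3K27me3-binding Cbx gene, was the only member with H3K27me3 near a TSS, against 3.28% of all genes, and no further member had it over the gene body, against 6.45% of all genes. The peak, at chr11:118903939-118904560, lay 1.72 kb upstream of the 5′ end, with 16 tags, a fold enrichment of 9.14, a score of 54.5 and an FDR of 12.5%, and 31.7% of the peaks of its list scored lower. In WT erythroblasts *Cbx8* had no peak, the nearest being 11.4 kb from a TSS. None of the 8 members with WT H3K27me3 in erythroblasts had it in pro-erythroblasts. Non-overlap was the rule in these lists, as 79.9% of all genes with WT H3K27me3 near a TSS or over the gene body in erythroblasts had none in pro-erythroblasts (10.5% of all genes tested). Near a TSS the share was 85.6% (9.87% of all genes tested). Scaled to the unique tags of the pro-erythroblast library, 9 of the 10 erythroblast peaks would hold at least the lowest tag number among pro-erythroblast peaks within 20% of their length, and 1, that of *Bmi1* with 101 tags, at least the median. The part of depth in this difference was not tested.

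Without Mtf2, H3K27me3 was no longer called at any of the 7 erythroblast genes (11.4% of all genes had a WT and no Mtf2-null peak near a TSS). This was the common course in these lists, in which 98.8% of all genes with a WT peak near a TSS had none in Mtf2-null erythroblasts. *Scmh1* kept a call over the gene body, but from different peaks, 79.6 kb past the 5′ end in WT and 5.01 kb past it in Mtf2-null cells. Scaled to the unique tags of the deeper Mtf2-null library, the *Bmi1* peak would hold 360 tags, where the lowest of 753 Mtf2-null peaks within 20% of its length held 140. The *Phc3* peak would hold 53.6 tags, where the lowest of 1155 such peaks held 35. These values take tags to scale with ChIP depth and leave out the IgG libraries. The part of depth in the loss was not tested. The nearest Mtf2-null erythroblast peak lay 79.8 kb from a *Bmi1* TSS, 384 kb from *Pcgf2*, 497 kb from *Pcgf1*, 557 kb from *Cbx2*, 21.5 kb from *Cbx7*, 580 kb from *Phc3* and 1450 kb from *Kdm2b*. The absence of CpG island-like peaks in that list moved with this result, as 5 of the 10 member peaks lay in such sequence, and its part in the loss was not tested. In pro-erythroblasts the *Cbx8* peak was not called in Mtf2-null cells (3.11% of all genes changed in this way), where the nearest peak was 58.1 kb away. Every peak of that Mtf2-null list had an FDR of 100%.

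Gains were few. No member had H3K27me3 in Mtf2-null pro-erythroblasts, near a TSS (1.27% of all genes) or over the gene body (2.9%), so that none was gained there (1.09% of all genes were). In Mtf2-null erythroblasts these 2 genes (6.06% of members) had a peak near a TSS, against 1.63% of all genes. No other member had one over the gene body, against 5.24% of all genes. Neither had a WT peak near a TSS (1.49% of all genes changed in this way). The *Scmh1* peak lay in an intron at chr4:120082275-120083869, 4.87 kb downstream of the nearest TSS, close to the limit of the window, with 95 tags, a fold enrichment of 4.95, a score of 64.5 and an FDR of 0.35%. As at *Ezh2*, none of the 25-base words around its summit occurred only once in the genome. Scaled to the unique tags of the WT erythroblast library, these peaks would hold 77.9 and 42.5 tags for *Ezh2* and *Scmh1*, where the lowest WT peaks of like length held 82 and 42.

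Mtf2 peaks were found at some members, and each count is given beside the share of all genes. In pro-erythroblasts *Cbx7* was the only one with a Mtf2 peak near a TSS, against 8.44% of all genes, and 5 members (15.2%) had one near a TSS or over the gene body, against 18.8%. *Cbx7* had a pair, upstream of its 5′ end. The stronger, at chr15:79804789-79806283, lay 3.82 kb upstream with 59 tags, a fold enrichment of 12.8, a score of 164 and an FDR of 0.05%, and the other, at chr15:79806324-79807496, had its summit 5.4 kb upstream with 42 tags, a fold enrichment of 6.98, a score of 103 and an FDR of 0.08%. These lay at least 38.6 kb from the H3K27me3 peaks that erythroblasts carried inside the same gene. *Kdm2b* also had Mtf2 in pro-erythroblasts and H3K27me3 in erythroblasts, with at least 21.8 kb between them. Its Mtf2 peaks were intronic, at chr5:123424877-123425617 (32 tags, fold enrichment 14.4, score 84.8, FDR 0.12%) and chr5:123449380-123451371 (73 tags, fold enrichment 7.28, score 101, FDR 0.07%).

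*Scmh1* had an intronic pro-erythroblast Mtf2 peak at chr4:120097952-120099308, 20.3 kb from the 5′ end, with 53 tags, a fold enrichment of 7.28, a score of 80.8 and an FDR of 0.11%. *Pcgf5*, of the variant PRC1 group that acts in X inactivation, had one at chr19:36499472-36500578, 46.5 kb from the 5′ end, with 41 tags, a fold enrichment of 5.83, a score of 50.9 and an FDR of 0.31%. In erythroblasts *Mtf2* alone had a Mtf2 peak near a TSS, against 1.51% of all genes, and *Pcgf3*, a relative of *Pcgf5*, brought the count over gene bodies to 2, against 5.14%. The *Pcgf3* peak lay in an intron at chr5:108921141-108921784, 31.4 kb from the 5′ end, with 15 tags, a fold enrichment of 13.6, a score of 56.8 and an FDR of 9.07%. No member had both WT H3K27me3 and Mtf2 in the same fraction near a TSS or over the gene body, where 3.6% of all genes had both in pro-erythroblasts and 1.04% in erythroblasts.

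The peaks of these genes differed in how often their sequence recurs in the genome. All 25-base words around the summit occurred once in the genome at 8 of the 11 WT H3K27me3 peaks, and the share was 93.2% at *Bmi1*, 67.6% at the weaker *Cbx7* peak and 31.2% at *Scmh1*. At the 7 pro-erythroblast Mtf2 peaks the share was between 0% and 22.7%, and at both Mtf2-null H3K27me3 peaks it was 0%. The erythroblast Mtf2 peak of *Mtf2*, at 88.6%, resembled most WT H3K27me3 peaks in this. At *Pcgf3* it was 0%, with a median of 551 occurrences per word, and at the stronger *Cbx7* Mtf2 peak it was 0%, with a median of 624. Reads as short as these words can match several places equally well, and longer reads can match fewer. The read length itself was not used. Whether this repeated sequence had a part in these calls was not tested. With only peaks whose summit word occurs once, 7 members kept WT erythroblast H3K27me3 near a TSS (10.8% of all genes) and *Cbx8* kept its WT pro-erythroblast peak (2.08% of all genes). No member then had a peak in the Mtf2-null pro-erythroblast (0.8% of all genes), Mtf2-null erythroblast (0.255%) or pro-erythroblast Mtf2 list (0.545%), and *Mtf2* kept the erythroblast Mtf2 peak (0.134%).

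**Figure D4:**
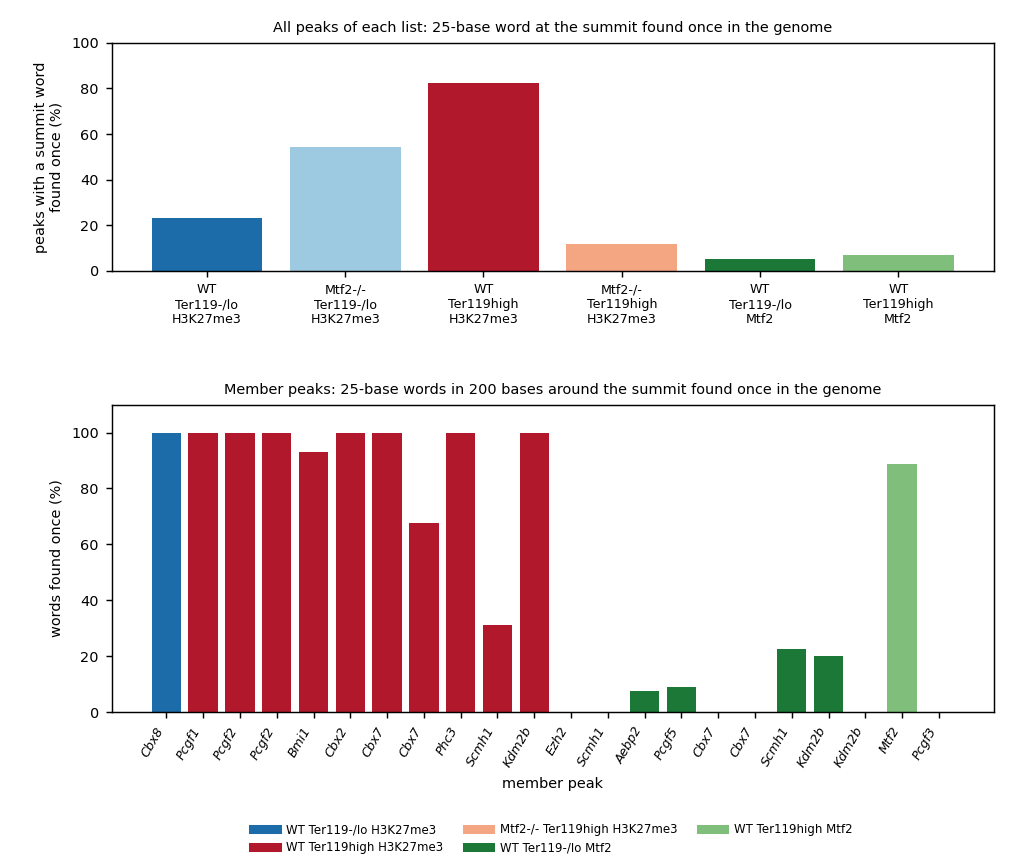
Upper panel, percent of all peaks of each list whose 25-base word at the summit occurs once in the genome. Lower panel, percent of the 25-base words in 200 bases around the summit that occur once, for each of the 22 member peaks, coloured by list; 8 WT H3K27me3 peaks stand at 100%, and the Mtf2-null H3K27me3 peaks of Ezh2 and Scmh1 stand at 0%.

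The other members had no peak in any list and are given by the distance from a TSS to the nearest peak of any list. The catalytic PRC1 genes *Ring1* and *Rnf2*, which encode the H2A ubiquitin ligases, were 23.0 and 25.3 kb away. *Pcgf6*, of a germline-gene repressing PRC1, was 34.5 kb away. Of the canonical PRC1 genes, *Cbx6* was 28.4 kb, *Phc1* 61.9 kb and *Phc2* 83.3 kb away. Of the variant PRC1 genes, *Rybp* was 105 kb, *Yaf2* 17.8 kb and *L3mbtl2* 16.2 kb away. The demethylase genes *Kdm6a* and *Kdm6b* were 17.7 and 30.4 kb away. Nearest to the 5 kb limit were, inside it, the weaker pro-erythroblast Mtf2 peak of *Cbx7*, whose edge lay 4.78 kb from a TSS, and the Mtf2-null erythroblast H3K27me3 peak of *Scmh1* at 4.24 kb, and, outside it, the Mtf2 peaks of *Jarid2* at 5.6 kb and *Pcgf3* at 5.9 kb. Each distance was the smallest over all TSS of a gene, and members had a median of 5 TSS against 2 for all genes. The part of TSS number in the medians that follow was not tested. Over all 33 members, the median distance to a WT erythroblast H3K27me3 peak was 34.9 kb, against 143 kb for all genes. It was also shorter for members in the pro-erythroblast H3K27me3 lists, at 97.7 against 176 kb in WT and 204 against 497 kb in Mtf2-null cells. It was longer for members in Mtf2-null erythroblast H3K27me3, at 384 against 226 kb, and in the Mtf2 lists, at 83.3 against 44.5 kb in pro-erythroblasts and 298 against 216 kb in erythroblasts.

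**Figure D5:**
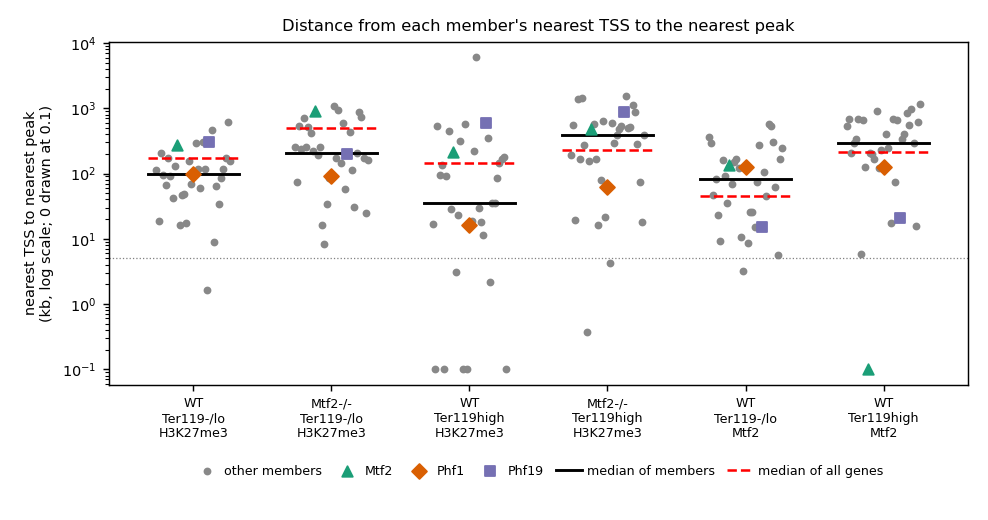
Distance in kb, on a log axis, from the nearest TSS of each member to the nearest peak of each list, with 0 drawn at 0.1. Grey points are members, coloured symbols Mtf2, Phf1 and Phf19, black bars the median of the members, red dashed bars that of all genes and the dotted line 5 kb; Phf1 and Phf19 lie above the dotted line in every list.

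Of 26 other genes of the Polycomb pathway (H2A deubiquitinases, variant PRC1 partners and MBT-domain proteins among them), 4 (15.4%, against 11.5% of all genes) had H3K27me3 near a TSS in WT erythroblasts. These were *Sfmbt2*, *L3mbtl3*, *Fbrsl1* and *Hdac1*, and none of the 26 had a Mtf2-null peak there (1.63% of all genes). *L3mbtl3*, an MBT-domain protein, had the strongest of these peaks, with 83 tags, a fold enrichment of 9.84 and a score of 155. Its summit lay 0.831 kb from the 5′ end, and that of *Sfmbt2* (score 51.4) lay 0.765 kb from it. The *Fbrsl1* summit (score 61.7) lay 64.0 kb from the 5′ end, 2.44 kb downstream of the start of the protein-coding transcript Fbrsl1-205. The *Hdac1* summit (score 73.4) lay past the end of the gene, 28.8 kb from the 5′ end. It was 3.65 kb downstream of the start of the retained-intron transcript Hdac1-007. *Bcor* and *Auts2*, partners of variant PRC1, had H3K27me3 over the gene body only, which brought the count to 6 (23.1%, against 13.2% of all genes). In WT pro-erythroblasts 0 of the 26 had H3K27me3 near a TSS (3.28% of all genes). *Auts2* and *Sfmbt2* had it over the gene body, 2 genes (7.69%, against 6.45% of all genes). *Auts2* also had a Mtf2-null pro-erythroblast peak over its gene body, but at a different site. Its WT peak spanned chr5:132760317-132760975 and its Mtf2-null peak, with an FDR of 100%, chr5:132838178-132838978. Mtf2 was near a TSS of 3 (11.5%, against 8.44% of all genes) in pro-erythroblasts, *Bcor*, *Auts2* and *Dcaf7*. Gene bodies added *Sfmbt1*, *Sfmbt2* and *Csnk2a1*, which brought the count to 6 (23.1%, against 18.8% of all genes). In erythroblasts Mtf2 was near a TSS of 0 (1.51% of all genes). It was over the gene body of 2, *Auts2* and *Csnk2a1* (7.69%, against 5.14% of all genes).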

How the data were processed

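Reads were aligned to mm9 by the authors (Bowtie 2.2.3), and MACS 1.3.7 compared each ChIP library with IgG of the same fraction and genotype at a p cutoff of 1e-05. In WT cells 1 IgG library per fraction served both antibodies. Their methods state replicates of 2, and whether these were pooled is not said. The deposited tag counts are raw reads per peak, the deposited score is −10 log10 of p, the deposited fold is the ratio to local IgG background, and the deposited FDR is a percent estimated by the authors' caller by exchanging ChIP and IgG.

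A gene had a peak when 1 base overlapped 5 kb either side of any annotated TSS, or the gene body. Summits, GC, CpG and 25-base words (both strands) were read from NCBIM37 with Python 3.11.15, numpy 2.4.6 and pandas 2.3.3. Overlap and distance steps matched brute force in 500 of 500 simulated intervals. Every member is named; members with a peak are given with its values, the others by distance. Sequences were those with the highest fold. The members and lists were chosen with earlier results of these data known. Alternatives were other score, FDR, window, TSS, summit and peak-number rules. The series design text names H3K4me3, while the labels of these libraries name H3K27me3. *Sox1* had no match by symbol, and 1 marker gene is not reported here. Tag numbers carry counting error only, and PCR reads are not independent molecules.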

Additional observations from a re-analysis of the deposited data

How the results depend on the processing

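No paired analysis was possible because each condition had 1 library. Of 120 alternative counts over 18 reported counts, 71 stayed within 1.5 times the reported one. A count of 1 or 2 genes leaves that range with 1 gene, and the causes were not tested. Shares of all genes under most of these rules are not given, the score, FDR, peak-number, 1 kb and 10 kb rules among them. Those counts therefore do not compare members with other genes. Of the 4490 WT erythroblast H3K27me3 peaks, 1324 reached a score of 100.

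With a score of at least 100, the erythroblast WT H3K27me3 counts fell to 3 (*Pcgf2*, *Bmi1* and *Cbx7*), near a TSS, with the gene body, and as lost genes. Those of WT pro-erythroblast H3K27me3 and of Mtf2-null erythroblast H3K27me3 fell to 0, lost and gained genes included, and with the gene body the Mtf2 counts became 2 in pro-erythroblasts and 1 in erythroblasts. With an FDR of at most 5%, WT erythroblast H3K27me3 again gave 3 for all these counts, and WT pro-erythroblast H3K27me3 and erythroblast Mtf2 gave 0. These zeros say nothing of the genes, since 1 of 4992 and 0 of 5309 peaks of those lists pass that limit, while all 5791 Mtf2-null erythroblast peaks do. With equal numbers of peaks per list, WT erythroblast H3K27me3 gave 3, WT pro-erythroblast and Mtf2-null erythroblast H3K27me3 and pro-erythroblast Mtf2 gave 0 (lost genes 3 and 0, gained genes 0), and erythroblast Mtf2 with the gene body gave 1.

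A window of 1 kb gave 0 for WT pro-erythroblast H3K27me3 and pro-erythroblast Mtf2, and 1 for Mtf2-null erythroblast H3K27me3. A window of 10 kb gave 2 for WT pro-erythroblast H3K27me3, 1 for Mtf2-null pro-erythroblast H3K27me3 (*Bmi1*), 4 for pro-erythroblast Mtf2 and 2 for erythroblast Mtf2. With the 5′ end only, WT erythroblast H3K27me3 and its lost genes gave 4, Mtf2-null erythroblast H3K27me3 and its gained genes 1, and erythroblast Mtf2 0. Requiring the summit in the window, or counting 5 kb before the gene and 1 kb after it, moved no count beyond that range. With only peaks whose summit word occurs once, chosen after the data were seen, the Mtf2-null erythroblast H3K27me3, gained and pro-erythroblast Mtf2 counts were 0, and erythroblast Mtf2 with the gene body was 1.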
